A study of Rattus norvegicus with 115 samples.

Results

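Transcript levels of the 3 TGF-beta ligands (Tgfb1, Tgfb2 and Tgfb3) and of 3 genes of plasminogen activation (Plau, Plat and Plaur) were followed in rat brain tumours, and in the hemisphere opposite them, after irradiation. The 6 genes were chosen by name, with earlier results of these data known. They are 6 of the 14217 genes that had at least 1 array probe set annotated to that gene alone. Where a gene had several such probe sets, the brightest over all arrays stood for it, and no low value was filtered out, so all 6 were tested.

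The arrays held RNA from 59 tumours and 56 contralateral samples of 60 Fisher rats, each carrying a graft of the rat glioblastoma cell line 9L in the right caudate nucleus. The rats were irradiated 10 days after grafting with synchrotron microbeam radiation therapy (MRT, an array of narrow beams with 400 Gy in the beams and 18 Gy in the valleys between them), with a broad beam (BB, 17.4 Gy), or not at all. Both hemispheres were exposed, and tissue was resected 6 h, 48 h, 8 d or 15 d later. MRT tumours numbered 9, 8, 7 and 4 at the 4 times, BB tumours 6, 4, 4 and 4, and untreated tumours 5, 4 and 4 at the first 3 times, whereas the contralateral samples of MRT rats numbered 9, 7, 6 and 4, those of BB rats 6, 3, 4 and 4, and those of untreated rats 5, 4 and 4. The untreated rats also carried a tumour, and none of them is labelled 15 d. The labels number the rats and give each array 1 rat, and 55 rats gave both tissues. All 35 BB arrays carry labels and processing notes of their own, and BB cannot be told apart from that set.

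TGF-beta ligands are secreted in a latent complex with their own propeptide, bound to latent TGF-beta binding proteins in the matrix, and integrins or proteases release them to act on receptor kinases that phosphorylate SMAD proteins. Plau encodes the urokinase-type plasminogen activator (uPA) and Plat the tissue-type activator (tPA), 2 serine proteases that cut plasminogen into plasmin. Plasmin degrades matrix and can release latent TGF-beta, and Plaur encodes the cell surface receptor that holds uPA. In brain, tPA is known from neurons and blood vessels, and uPA and its receptor are known from invading tumour cells, macrophages and activated microglia.

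By RefSeq's annotation of the rat assembly GRCr8, Tgfb1 lies at chr1:90324312-90340627, Tgfb2 at chr13:100691540-100793227 and Tgfb3 at chr6:111435170-111457646. Plau lies at chr15:3505485-3511987, Plat at chr16:75943061-76022037 and Plaur at chr1:89181363-89196308. Values below are log2 of the deposited array intensity. Differences are log2 differences ± standard error from limma's moderated fit over all 14217 genes, Benjamini-Hochberg adjusted over all of them, and a gene was called at an adjusted p under 0.05. The level of a probe set is compared between groups and never with another gene's probe set.

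The tissue labels were set against cell type markers. Untreated tumours had all 6 proliferating cell markers called higher than untreated contralateral samples (median 4.27) and all 11 neuron markers called lower (median -1.97). The neuron markers averaged 9.46 in MRT tumours at 8 d and 7.95 in untreated tumours at 8 d. The proliferating cell markers reached 7.90 and 8.83 in single BB contralateral samples at 8 d and 15 d and 7.95 in an untreated one at 8 d. In 7 of the 115 arrays over 1500 genes lay more than 1 log2 from the median of their group, against 162 for the median array. The farthest was the untreated contralateral sample of rat 18 at 48 h, with 4081 such genes, and the others were MRT tumours of rats 6, 21 and 38 and BB tumours of rats 47, 56 and 57.

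The protease gene Plau had the widest span of the 6 genes in both tissues: its group means ran over 3.40 log2 in tumours and 3.89 log2 in contralateral samples. It rose after MRT at 48 h and 8 d in tumours and at 6 h, 48 h and 8 d in contralateral samples. After BB it rose at 48 h and 8 d in tumours and at 6 h and 8 d in contralateral samples. Of these rises, the other Plau probe set was called only for those after MRT at 48 h and 8 d. Tgfb3 fell at 8 d in MRT and BB tumours. Plat and Plaur rose in contralateral samples 6 h after MRT, and Plat also 6 h after BB. Tgfb1 was not called in any comparison of an irradiated group with its untreated group.

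Counts of called members are set beside the share of all genes called in the same comparison. Against untreated tumours of the same time, MRT tumours had 0, 1 and 3 of the 6 genes called at 6 h, 48 h and 8 d, beside 1.42, 2.35 and 47.8 percent of all genes, so that the share at 8 d was close to that of all genes. BB tumours had 2, 1 and 2 called, beside 17.4, 2.6 and 22.9 percent. MRT contralateral samples had 3, 2 and 2 of the 6 called, beside 8.22, 32.2 and 7.91 percent, and BB contralateral samples 3, 0 and 2, beside 21.6, 21.6 and 5.94 percent. Without the untreated sample of rat 18 the count over all genes at 48 h was 1214 in place of 4579 for MRT and 501 in place of 3069 for BB. MRT and BB were set against the same untreated arrays.

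MRT tumours set against BB tumours had 0, 0, 1 and 0 of the 6 called at 6 h, 48 h, 8 d and 15 d, beside 15.7, 0, 1.27 and 3.05 percent of all genes. At 48 h limma called 0 genes, with 515 at an unadjusted p under 0.05 and 43 called with array quality weights. In contralateral samples MRT against BB gave 0, 1, 1 and 1 called members, beside 5.39, 1.94, 3.02 and 5.87 percent. Between times, untreated tumours at 8 d against 6 h had 2 called beside 29.2 percent. MRT tumours had 3 called at 8 d against 48 h beside 30.8 percent and 2 at 15 d against 8 d beside 27.9 percent, and BB tumours 0 at 15 d against 8 d beside 1.7 percent. The contralateral counts between times were 1 without treatment at 8 d against 6 h beside 1.86 percent, 1 after MRT at 8 d against 48 h beside 0.359 percent, and 0 after MRT and 0 after BB at 15 d against 8 d beside 0.0633 and 1.17 percent.

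Tumour against contralateral tissue gave 6 of 6 called without treatment beside 81.1 percent of all genes, and 6 of 6 at 8 d after MRT beside 62.7 percent. The difference between the effects of irradiation in tumour and in contralateral tissue was called for 0, 0 and 1 members after MRT, beside 0.886, 2.48 and 37 percent. After BB it was called for 0, 1 and 0 members, beside 1.53, 5.7 and 7.76 percent. In 13 of these comparisons limma called 0 of the 6 members, and there 0 to 2 members had an unadjusted p under 0.05. The figure of member differences gives the comparisons of irradiated with untreated samples at once.

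**Figure D1:**
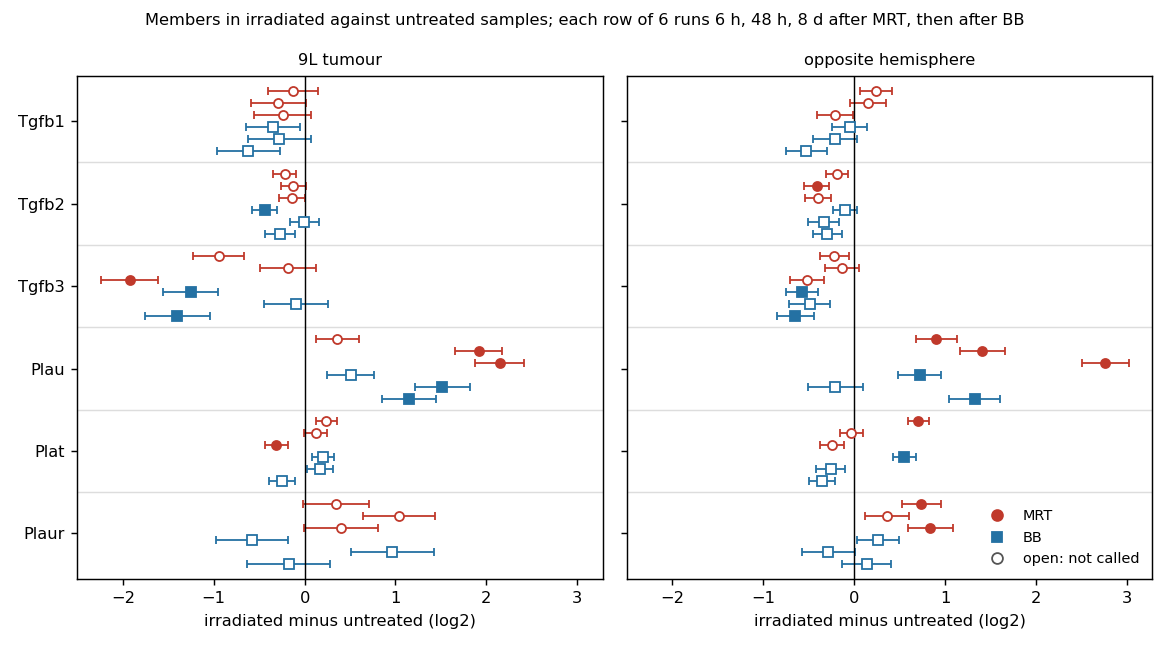
Log2 differences ± standard error of the 6 genes (rows) between irradiated and untreated samples, with tumours and contralateral samples in separate panels. Each row runs 6 h, 48 h and 8 d after MRT, then after BB. Colours mark the treatment, and open symbols mark differences that were not called. The Plau row holds the largest positive differences, up to 2.76 in MRT contralateral samples at 8 d, and the Tgfb3 row the largest negative one, -1.93 in MRT tumours at 8 d.

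Among the ligands, Tgfb3 moved most in tumours. TGF-beta 3 is the isoform best known from palate closure and wound repair. At 8 d Tgfb3 had a lowest of 6.63, a median of 7.33 and a highest of 8.15 in the 7 MRT tumours, against 9.01, 9.26, 9.19 and 9.37 in the untreated tumours. Every MRT tumour lay below every untreated tumour, and the difference was -1.93 ± 0.31, adjusted p = 2.1e-06. The BB tumours at 8 d had 7.85, 7.32, 7.55 and 8.52, and all 4 also lay below the untreated tumours (-1.40 ± 0.35, adjusted p = 0.0043). The Tgfb3 difference between MRT and BB tumours at 8 d was not called (-0.53 ± 0.31, adjusted p = 0.35). At 8 d the proliferating cell markers averaged 9.27 ± 0.86 in MRT, 10.12 ± 0.90 in BB and 10.78 ± 0.12 in untreated tumours (SD, n = 7, 4 and 4). The neuron markers averaged 9.46, 8.65 and 7.95 in the same order. A smaller share of tumour in these samples and a lower Tgfb3 level in the tumour cannot be told apart.

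At 6 h Tgfb3 had a lowest of 7.01, a median of 7.52 and a highest of 8.11 in the BB tumours, against 9.08, 9.18, 9.11, 8.98 and 8.02 in the untreated tumours. The BB tumours were lower (-1.25 ± 0.30, adjusted p = 0.0036), although the groups overlapped through the untreated tumour of rat 5, and a fit of the 2 groups alone gave an adjusted p of 0.057. The MRT tumours at 6 h averaged 7.93 ± 0.67 (SD, n = 9), and their difference of -0.95 ± 0.28 from the untreated tumours was not called (adjusted p = 0.076). At 48 h Tgfb3 averaged 8.70 ± 0.48 in MRT tumours, 8.79 ± 0.61 in BB tumours and 8.88 ± 0.45 in untreated tumours (SD, n = 8, 4 and 4), with differences from untreated of -0.18 and -0.10, neither called.

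The fall of Tgfb3 in MRT tumours at 8 d was followed by a higher level at 15 d. The 4 MRT tumours at 15 d had 9.34, 8.81, 8.42 and 9.14, all above the 7 at 8 d (1.64 ± 0.31, adjusted p = 0.00017), and the 8 d tumours lay below those at 48 h (-1.42 ± 0.26, adjusted p = 2.2e-05). BB tumours averaged 8.59 ± 0.37 at 15 d and 7.81 ± 0.52 at 8 d (SD, n = 4 each), a difference of 0.78 ± 0.35 that was not called (adjusted p = 0.23). Untreated tumours have no array at 15 d, so the 15 d level has no untreated counterpart.

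In contralateral samples Tgfb3 moved less. At 8 d it had 6.21, 6.07, 6.23 and 6.30 in the BB samples, against 6.77, 6.67, 7.21 and 6.75 in the untreated samples, with no overlap (-0.65 ± 0.21, adjusted p = 0.047). At 6 h the BB samples were also lower (-0.57 ± 0.18, adjusted p = 0.015). Both calls rested on single arrays: leaving out the untreated sample of rat 3 gave -0.45, adjusted p = 0.092 at 6 h, that of rat 4 -0.47, adjusted p = 0.072, and at 8 d 7 of the 8 arrays, left out in turn, ended the call. The MRT samples averaged 6.34 ± 0.30 at 8 d and the untreated samples 6.85 ± 0.24 (SD, n = 6 and 4; -0.51 ± 0.19, adjusted p = 0.084). The MRT effect on Tgfb3 at 8 d was more negative in tumour than in contralateral tissue, with a difference between the effects of -1.41 ± 0.38, adjusted p = 0.0021. That call ended with the mean of the neuron markers (-0.74, adjusted p = 0.16), the proliferating cell markers (-0.69, adjusted p = 0.10) or the fibroblast and pericyte markers (-0.53, adjusted p = 0.73) as a covariate, the last 2 being alternatives chosen after seeing the data. With the fibroblast and pericyte covariate 118 of all genes were called in this comparison, in place of 5259.

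**Figure D2:**
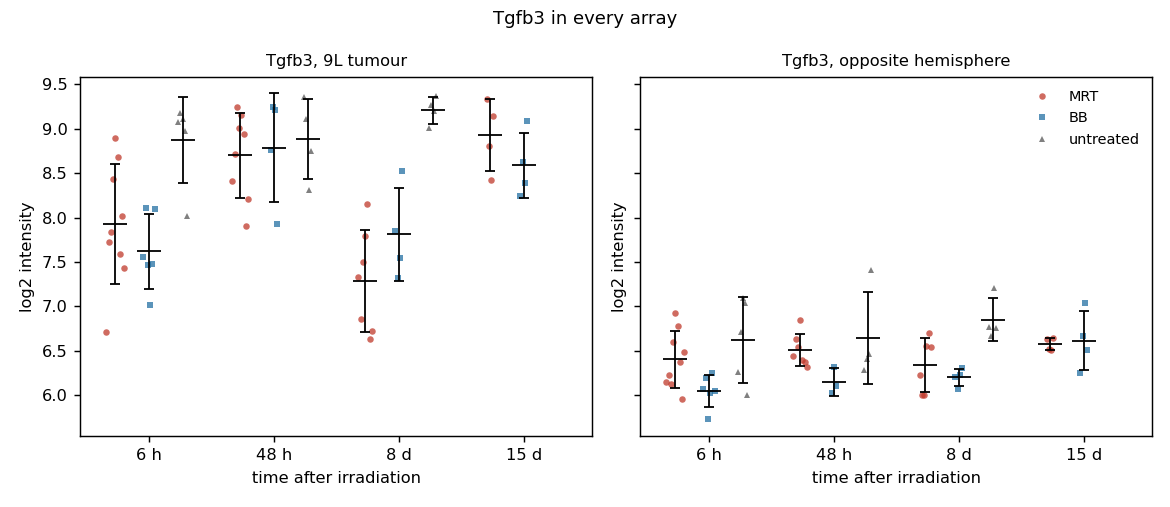
Tgfb3 level (log2 intensity) of every array by treatment and time, tumours and contralateral samples in separate panels, with points for arrays and bars for group means. The 7 MRT tumours at 8 d lie at 6.63 to 8.15, below the 4 untreated tumours at 9.01 to 9.37, and the 4 MRT tumours at 15 d lie at 8.42 to 9.34.

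Some genes listed as markers of fibroblasts and pericytes, cells that make matrix, differed at 8 d between the same tumours as Tgfb3. Whether these genes came from such cells or from the tumour cells was not tested. Of the 6 markers, 4 were called lower in MRT tumours at 8 d (Pdgfra -3.86 ± 0.47, Pdgfrb -3.56 ± 0.38, Lum -2.60 ± 0.52 and Cspg4 -1.53 ± 0.28), and the same 4 in BB tumours at 8 d. Rgs5 and Dcn, the rest of the list, were called lower in neither. The mean of the 6 ranged over 6.99 to 8.06 in MRT tumours, 7.60 to 8.88 in BB tumours and 9.44 to 9.85 in untreated tumours at 8 d, and no marker was at 0 on an array, the lowest deposited intensity being 7. With that mean as a covariate, an alternative chosen after seeing the data, the Tgfb3 difference of MRT tumours at 8 d was -0.74, adjusted p = 0.70, and that of BB tumours -0.63, adjusted p = 0.77. Over all genes that fit called 1 in MRT tumours at 8 d in place of 6797, and 20 in BB tumours in place of 3255. Nearly every gene lost its call there, so the lost Tgfb3 calls say nothing particular of Tgfb3. In bulk samples fewer cells of a type and less RNA per cell cannot be told apart. At 15 d against 8 d after MRT, Pdgfra (2.88 ± 0.47), Pdgfrb (1.14 ± 0.38) and Cspg4 (1.12 ± 0.28) rose and Rgs5 (-1.18 ± 0.29) and Dcn (-1.36 ± 0.46) fell. At 6 h, when Tgfb3 was lower in BB tumours, 0 of the 6 markers were called lower there, and their mean was 8.80 in BB tumours and 8.85 in untreated tumours. In MRT tumours at 15 d Tgfb3 averaged 8.93 and the marker mean 7.85, against 7.28 and 7.50 at 8 d.

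Tgfb1, the isoform best known from immune cells and fibrosis, was called in no comparison of treatments. Its highest tumour mean was 8.03 ± 0.41 in MRT tumours at 15 d (SD, n = 4), against 7.23 ± 0.30 in BB tumours at 15 d (SD, n = 4). These are 8.08, 7.47, 8.44 and 8.11 in the MRT tumours and 6.99, 7.33, 7.00 and 7.61 in the BB tumours. The groups overlapped, and the difference of 0.79 ± 0.35 was not called (adjusted p = 0.24). In contralateral samples at 15 d Tgfb1 had 6.66, 6.63, 6.73 and 6.52 after MRT, against 5.83, 6.13, 6.02 and 5.98 after BB. All 4 MRT samples were above all 4 BB samples, and the difference of 0.64 ± 0.22 was not called (adjusted p = 0.072). Against untreated tumours the Tgfb1 differences at 6 h, 48 h and 8 d were -0.13, -0.29 and -0.24 in MRT tumours and -0.35, -0.28 and -0.62 in BB tumours.

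Tgfb2, the isoform known from glioma cells and the eye, was lower in tumours than in contralateral samples, unlike the other 5 genes. At 6 h it had a lowest of 7.01, a median of 7.31 and a highest of 7.48 in the BB tumours, against 7.48, 7.76, 7.55, 7.95 and 7.78 in the untreated tumours. The groups met at 7.48 without crossing, and the BB tumours were lower (-0.44 ± 0.14, adjusted p = 0.021). Without the untreated tumour of rat 4 the difference was -0.38, adjusted p = 0.073, and a fit of the 2 groups alone gave an adjusted p of 0.13. In contralateral samples at 48 h Tgfb2 averaged 7.87 ± 0.18 after MRT and 8.28 ± 0.49 without treatment (SD, n = 7 and 4; -0.41 ± 0.14, adjusted p = 0.021). That call rested on the untreated sample of rat 18, at 8.92, and without it the difference was -0.20, adjusted p = 0.42. The other Tgfb2 probe set was called neither in BB tumours at 6 h (-0.43, adjusted p = 0.18) nor in MRT contralateral samples at 48 h (-0.09, adjusted p = 0.68). It gave -0.52, adjusted p = 0.040 in MRT and -0.73, adjusted p = 0.011 in BB contralateral samples at 8 d, where the one used gave -0.40 and -0.30, neither called.

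**Figure D3:**
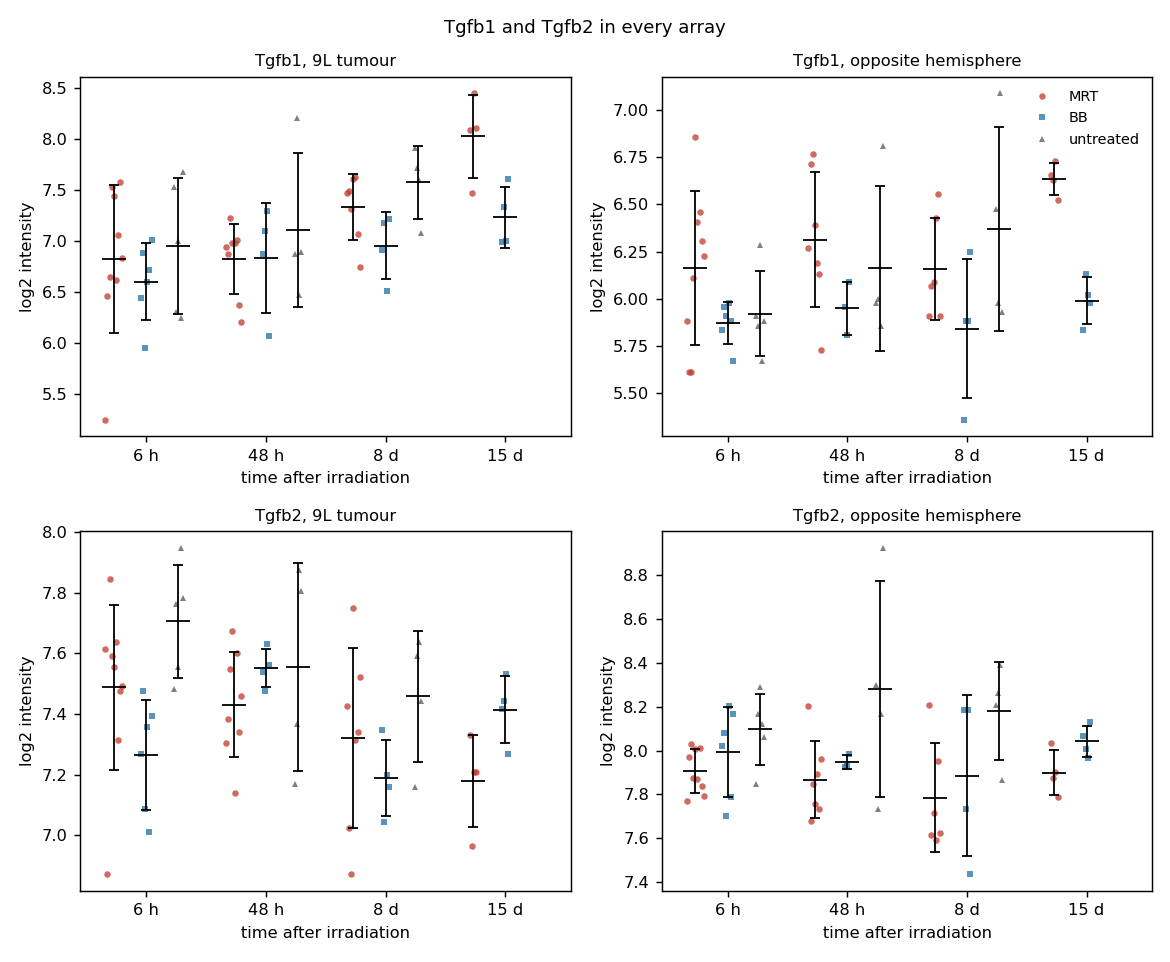
Tgfb1 and Tgfb2 levels (log2 intensity) of every array by treatment, time and tissue, with bars for group means. Tgfb1 is highest in MRT tumours at 15 d, with a mean of 8.03, and the Tgfb2 group means stay between 7.18 and 8.28.

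Plau, the uPA gene, rose after MRT in both tissues. At 48 h it had a lowest of 8.51, a median of 9.19 and a highest of 9.31 in the 8 MRT tumours, against 7.38, 6.89, 7.19 and 7.26 in the untreated tumours. Every MRT tumour was above every untreated tumour, a 3.78-fold higher level on average (1.92 ± 0.26, adjusted p = 3.7e-06). The BB tumours at 48 h had 8.54, 8.69, 8.96 and 8.60, also all above the untreated tumours (1.52 ± 0.30, adjusted p = 0.0047). At 6 h the Plau differences of 0.36 ± 0.24 for MRT and 0.51 ± 0.26 for BB tumours were not called (adjusted p = 0.72 and 0.16).

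At 8 d Plau had a lowest of 10.05, a median of 10.62 and a highest of 11.09 in the 7 MRT tumours, against 7.99, 8.84, 8.34 and 8.57 in the untreated tumours, with no overlap (2.15 ± 0.27, adjusted p = 1.4e-08). The BB tumours at 8 d had 9.78, 10.56, 9.23 and 8.78 and overlapped the untreated tumours through rat 57 (1.15 ± 0.30, adjusted p = 0.0055). Without the BB tumour of rat 55, the highest, the BB difference was 0.82, adjusted p = 0.065, and a fit of the 2 groups alone gave an adjusted p of 0.081. MRT tumours were higher than BB tumours at 8 d (1.00 ± 0.27, adjusted p = 0.042), a call that ended without the BB tumour of rat 54 (1.06, adjusted p = 0.13), rat 56 (0.88, adjusted p = 0.12) or rat 57 (0.73, adjusted p = 0.46). At 15 d Plau had 10.60, 10.18, 10.91 and 9.54 in MRT tumours, against 9.54, 10.02, 10.13 and 9.71 in BB tumours (0.46 ± 0.30, adjusted p = 0.51).

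Plau also rose with time in untreated tumours, by 1.17 ± 0.28, adjusted p = 0.0024 at 8 d against 6 h. In MRT tumours it was higher at 8 d than at 48 h, without overlap (1.48 ± 0.22, adjusted p = 4.6e-07), and the difference at 15 d against 8 d was not called (-0.28 ± 0.27, adjusted p = 0.44), although the other Plau probe set was called lower at 15 d (-1.23, adjusted p = 0.0055). Ordered by mean, the tumour groups ran from untreated at 48 h and 6 h, through MRT and BB at 6 h, untreated at 8 d, BB and MRT at 48 h, and BB at 8 d and 15 d, to MRT at 15 d and 8 d. Of the 10 steps between neighbours in that order, 2 were wider than the larger SD of the neighbours: from BB at 6 h to untreated at 8 d, and from BB at 48 h to MRT at 48 h.

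In contralateral samples Plau was called higher at all 3 times after MRT. At 6 h it had a lowest of 5.61, a median of 6.30 and a highest of 6.41 in the 9 MRT samples, against 5.49, 5.46, 5.67, 5.17 and 4.86 in the untreated samples (0.91 ± 0.22, adjusted p = 0.0034). Only the MRT sample of rat 7, at 5.61, lay within the untreated range. The untreated mean of 5.33 at 6 h was the lowest of the contralateral groups, and untreated samples averaged 6.09 at 48 h and 5.89 at 8 d. The 6 h means were 6.24 after MRT and 6.05 after BB. At 48 h it had a lowest of 6.92, a median of 7.63 and a highest of 7.95 in the 7 MRT samples, against 5.61, 5.75, 5.67 and 7.30 in the untreated samples. The untreated sample of rat 18, at 7.30, overlapped the MRT samples, and the difference was 1.41 ± 0.25, adjusted p = 4.9e-05 with it and 1.82, adjusted p = 1.3e-07 without it.

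At 8 d Plau had a lowest of 8.20, a median of 8.67 and a highest of 9.03 in the 6 MRT contralateral samples, against 5.86, 5.67, 6.04 and 5.98 in the untreated samples. These groups lay far apart, a 6.79-fold higher level after MRT (2.76 ± 0.26, adjusted p = 9.6e-12), the largest difference of the 6 genes among the 20 comparisons of treatments. The BB samples at 8 d had 7.08, 7.95, 6.39 and 7.43, between both and overlapping neither (1.33 ± 0.28, adjusted p = 0.0040 against untreated). At 6 h the 6 BB samples had a lowest of 5.75, a median of 6.11 and a highest of 6.27, all above the untreated samples (0.72 ± 0.24, adjusted p = 0.026), a call that ended without the untreated sample of rat 4 (0.68, adjusted p = 0.063) or rat 5 (0.60, adjusted p = 0.082). At 48 h the 3 BB samples had 5.64, 5.93 and 6.07 and the difference was not called (-0.21 ± 0.30, adjusted p = 0.63).

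MRT was set against BB directly in the contralateral samples. Plau was higher after MRT at 48 h (1.62 ± 0.27, adjusted p = 0.00023), at 8 d (1.44 ± 0.26, adjusted p = 0.00021) and at 15 d (1.89 ± 0.28, adjusted p = 7.4e-06), without overlap each time. Its difference at 6 h was not called (0.19 ± 0.21, adjusted p = 0.68). At 15 d the values were 9.45, 9.63, 9.22 and 8.60 after MRT, against 6.48, 7.57, 8.01 and 7.26 after BB. Within the MRT samples Plau was higher at 8 d than at 48 h (1.16 ± 0.22, adjusted p = 0.0025; 1.00, adjusted p = 0.066 with a Gapdh measure of RNA quality as a covariate), and the 15 d against 8 d difference was not called (0.57 ± 0.26, adjusted p = 0.49). Of the 10 steps between neighbouring contralateral group means, 4 were wider than the larger SD of the neighbours, among them those below MRT at 8 d and below MRT at 15 d, the 2 highest groups.

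The effect of MRT on Plau was not shown to differ between tumour and contralateral tissue at 48 h (0.51 ± 0.37, adjusted p = 0.46) or 8 d (-0.62 ± 0.38, adjusted p = 0.20). The effect of BB at 48 h was larger in tumour (1.72 ± 0.43, adjusted p = 0.012), and without the untreated contralateral sample of rat 18 it was 1.32, adjusted p = 0.11. The other Plau probe set followed the one used over the 115 arrays (Pearson's r = 0.898, across arrays that share groups). It gave 1.30, adjusted p = 0.018 and 2.14, adjusted p = 9.7e-07 for MRT tumours at 48 h and 8 d, and 0.60, adjusted p = 0.015 and 1.63, adjusted p = 1.9e-08 for MRT contralateral samples at these times. It was not called in MRT contralateral samples at 6 h (0.06, adjusted p = 0.92) or BB tumours at 48 h (0.38, adjusted p = 0.61), and the mean of both probe sets ended these calls too (0.48, adjusted p = 0.085 and 0.95, adjusted p = 0.070). Nor was it called in BB tumours at 8 d (0.90, adjusted p = 0.075), in BB contralateral samples at 6 h (0.16, adjusted p = 0.60) and 8 d (0.54, adjusted p = 0.13), in untreated tumours at 8 d against 6 h (0.78, adjusted p = 0.092), in MRT contralateral samples at 8 d against 48 h (0.58, adjusted p = 0.19) or for the BB effect between tissues at 48 h (0.53, adjusted p = 0.49). MRT against BB tumours at 15 d gave -0.62, adjusted p = 0.46 with it and 0.46 ± 0.30, adjusted p = 0.51 with the one used.

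**Figure D4:**
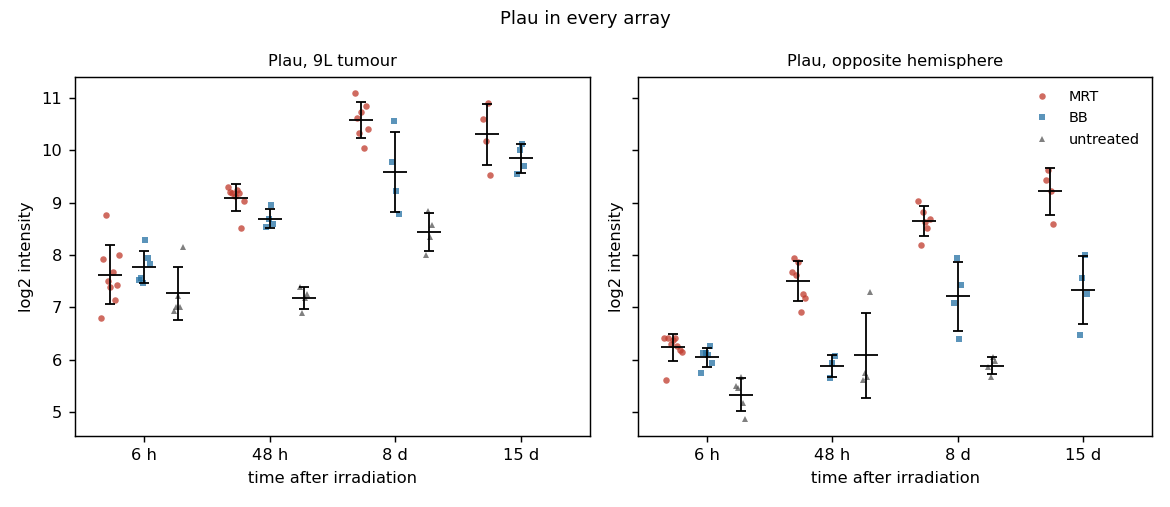
Plau level (log2 intensity) of every array by treatment and time, tumours and contralateral samples in separate panels, with bars for group means. In contralateral samples the MRT means are 6.24, 7.50, 8.65 and 9.22 at 6 h, 48 h, 8 d and 15 d, and the untreated means at 6 h, 48 h and 8 d are 5.33, 6.09 and 5.89.

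Some markers of macrophages and monocytes were called higher in each irradiated group where Plau was called higher than without treatment. Of the 12 markers, 7 and 12 were called higher in MRT tumours at 48 h and 8 d, and 6 and 5 in BB tumours. In MRT contralateral samples 6, 10 and 8 were called higher at 6 h, 48 h and 8 d and 2 lower at 6 h, and in BB contralateral samples 5, 4 and 2 higher. Plau itself was not called in the BB contralateral samples at 48 h, with means of 5.88 after BB and 6.09 without treatment. The mean of the 12 ranged over 10.00 to 11.47 in MRT tumours, 8.77 to 11.36 in BB tumours and 7.97 to 9.13 in untreated tumours at 8 d. In contralateral samples at 8 d it ranged over 8.05 to 8.32 after MRT, 6.68 to 7.86 after BB and 6.90 to 7.16 without treatment. Markers of other leukocytes also moved in tumours at 8 d. Of 8 T and NK cell markers 8 were called higher in MRT tumours and 2 in BB tumours, with means over 9.00 to 10.23 after MRT, 6.21 to 9.91 after BB and 6.33 to 7.95 in untreated tumours. Of 4 neutrophil markers 3 and 1 were called higher, with means over 5.56 to 7.76, 5.24 to 7.96 and 5.16 to 5.76 in MRT, BB and untreated tumours. The part of the T and NK cell and neutrophil markers in the Plau results was not tested.

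With the mean of the macrophage markers as a covariate, the Plau difference of MRT tumours was 1.10, adjusted p = 0.00044 at 48 h and 0.61, adjusted p = 0.10 at 8 d. That of BB tumours was 0.89, adjusted p = 0.012 at 48 h and 0.42, adjusted p = 0.17 at 8 d. In MRT contralateral samples it was 0.23, adjusted p = 0.58 at 6 h, -0.09, adjusted p = 0.83 at 48 h and 1.53, adjusted p = 0.00079 at 8 d. For MRT against BB contralateral samples it was 0.67, adjusted p = 0.59, 0.38, adjusted p = 0.54 and 1.05, adjusted p = 0.0072 at 48 h, 8 d and 15 d. The covariate itself differed between the groups compared. Over all genes that fit called 54 in MRT tumours at 48 h in place of 334, and 478 in MRT contralateral samples at 8 d in place of 1124. For MRT against BB contralateral samples it called 0 in place of 276 at 48 h and 70 in place of 429 at 8 d. Most genes lost their call in that comparison of MRT with BB, so the Plau calls lost there say nothing particular of Plau.

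Plat, the tPA gene, was called higher 6 h after irradiation in contralateral samples. It had a lowest of 9.63, a median of 9.94 and a highest of 10.18 in the 9 MRT samples and a lowest of 9.55, a median of 9.73 and a highest of 9.96 in the 6 BB samples, against 9.43, 9.24, 9.20, 8.86 and 9.32 in the untreated samples. Every irradiated sample was above every untreated one, by 0.71 ± 0.12, adjusted p = 8.4e-06 after MRT and 0.55 ± 0.13, adjusted p = 0.0013 after BB. The untreated samples themselves differed between times: at 8 d they had 10.14, 9.93, 10.67 and 9.90, all above those at 6 h (0.95 ± 0.14, adjusted p = 1.9e-05). At 48 h and 8 d the Plat differences from untreated were -0.03 and -0.24 in MRT samples and -0.26 and -0.35 in BB samples, with adjusted p between 0.15 and 0.88.

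In tumours the Plat differences were small. At 8 d it averaged 10.26 ± 0.19 in MRT tumours and 10.57 ± 0.17 in untreated tumours (SD, n = 7 and 4; -0.31 ± 0.13, adjusted p = 0.038), and the groups overlapped. Leaving out the untreated tumour of rat 27 gave -0.25, adjusted p = 0.15, rat 28 -0.28, adjusted p = 0.11, and quantile normalization -0.25, adjusted p = 0.083. In MRT tumours Plat was lower at 8 d than at 48 h (-0.31 ± 0.10, adjusted p = 0.019) and higher at 15 d than at 8 d (0.42 ± 0.13, adjusted p = 0.011; without the 15 d tumour of rat 40, 0.34, adjusted p = 0.080). In untreated tumours it was higher at 8 d than at 6 h (0.34 ± 0.14, adjusted p = 0.049), a call that 5 of the 9 arrays, left out in turn, ended.

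Plaur, the uPA receptor gene, was called in the MRT contralateral samples at 6 h and 8 d. At 6 h it had a lowest of 5.52, a median of 6.41 and a highest of 6.94 in the MRT samples, against 5.61, 5.46, 6.17, 5.81 and 5.29 in the untreated samples (0.74 ± 0.22, adjusted p = 0.020). At 8 d it had a lowest of 5.81, a median of 6.23 and a highest of 6.73 in the MRT samples, against 5.17, 5.81, 6.00 and 4.64 in the untreated samples (0.84 ± 0.25, adjusted p = 0.026). The groups overlapped both times. The 6 h call ended without the untreated sample of rat 2 (0.68, adjusted p = 0.067) or rat 5 (0.64, adjusted p = 0.079), and the 8 d call without the untreated sample of rat 28 (0.76, adjusted p = 0.11) or rat 39 (0.59, adjusted p = 0.19).

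In tumours Plaur was called in no comparison of treatments. At 48 h it had a lowest of 8.34, a median of 8.89 and a highest of 9.26 in the 8 MRT tumours, against 7.99, 7.78, 7.43 and 8.09 in the untreated tumours. The groups did not overlap, yet the difference of 1.04 ± 0.40 was not called in the fit over all tumour groups (adjusted p = 0.17), and a fit of the 2 groups alone gave an adjusted p of 0.0081. MRT against BB tumours at 6 h differed by 0.93 ± 0.34, adjusted p = 0.055, and without the MRT tumour of rat 6 by 1.17, adjusted p = 0.010. The other Plaur probe set lay near the floor, with means of 3.72 in tumours and 3.79 in contralateral samples, and did not follow the one used (Pearson's r = -0.143 over 115 arrays).

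**Figure D5:**
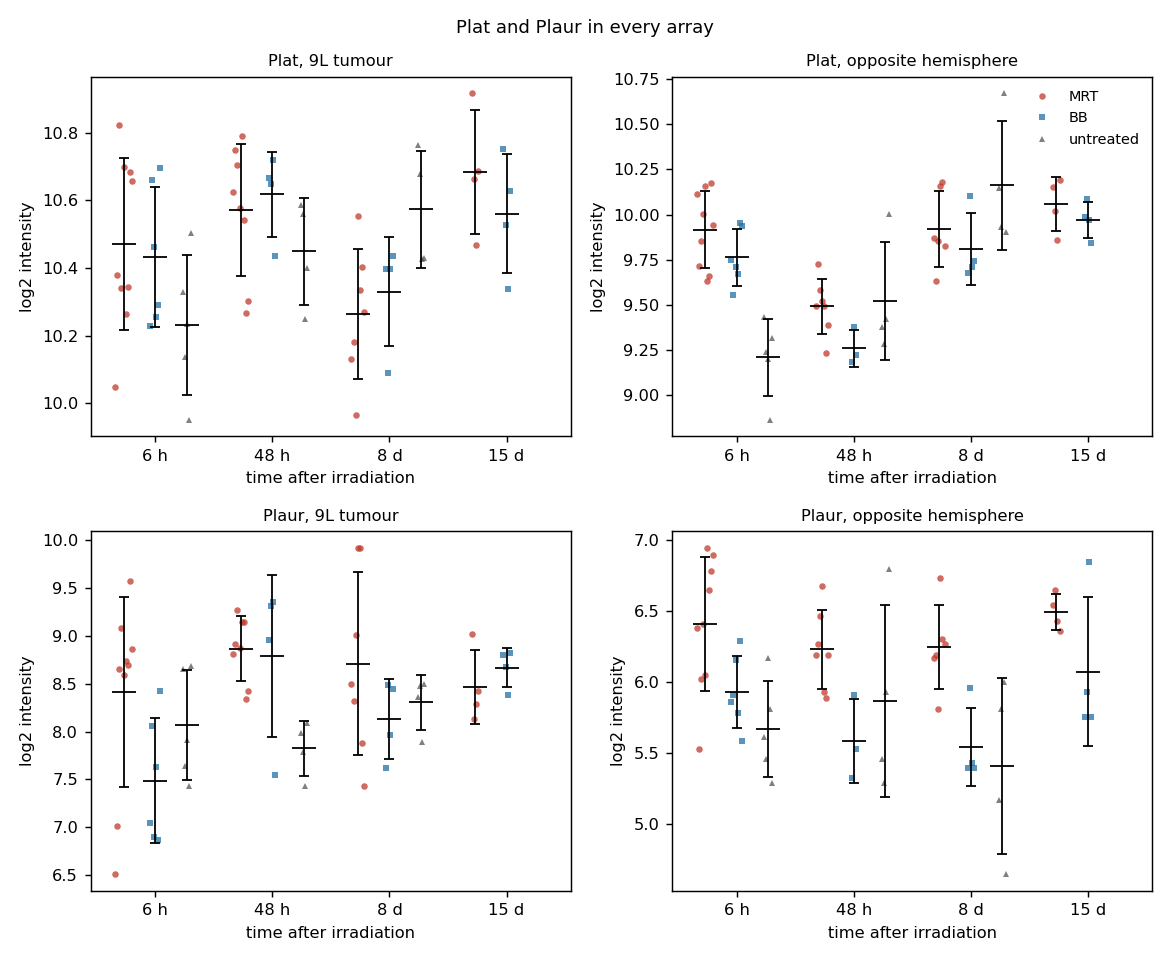
Plat and Plaur levels (log2 intensity) of every array by treatment, time and tissue, with bars for group means. Plat in untreated contralateral samples lies at 8.86 to 9.43 at 6 h, below all irradiated samples of that time, and Plaur in tumours lies above all contralateral samples at 48 h, 8 d and 15 d but not at 6 h.

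At 6 h in contralateral samples, Plau and Plat were called higher after MRT and after BB. Plaur was called higher after MRT only, with means of 5.93 after BB and 5.67 without treatment. Markers of neutrophils were also higher at 6 h. Of the 4 measured, 4 were called higher after MRT and 2 after BB. Their mean ranged over 5.21 to 7.88 after MRT, 5.36 to 5.81 after BB and 4.83 to 5.01 without treatment. The macrophage markers at 6 h ranged over 6.71 to 7.04 after MRT, 6.51 to 7.07 after BB and 6.09 to 6.49 without treatment. Other markers were lower at 6 h: of 6 microglia markers 4 were called lower after MRT and 3 after BB (means 6.35, 6.77 and 7.79 after MRT, after BB and without treatment). Of 7 endothelial markers 4 and 3 were called lower (means 7.32, 7.49 and 8.07 after MRT, after BB and without treatment), and of 6 fibroblast and pericyte markers 4 and 3 (means 7.70, 7.70 and 8.29). The part of the neutrophil, microglia and endothelial markers in these results was not tested. With the macrophage covariate the 6 h differences after MRT were 0.56, adjusted p = 0.0056 for Plat and 0.26, adjusted p = 0.56 for Plaur, and Plaur at 8 d gave -0.02, adjusted p = 0.98.

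Plau and its receptor gene were both called in MRT contralateral samples at 6 h and 8 d, and their promoters are shown for that reason. RefSeq promoters of GRCr8 matched 5 of the 6 members, Plat being the one without. The 250 bases before the annotated start are printed 5′ to 3′ on the gene's strand, Plau from chr15:3511988-3512237 (minus strand) and Plaur from chr1:89181113-89181362 (plus strand). Capitals mark matches, on either strand, to the letters TGANTCA (AP-1), GAGGAA (PU.1), CAGACA (SMAD) or GGGCGG (Sp1), which do not overlap one another here.
Plau: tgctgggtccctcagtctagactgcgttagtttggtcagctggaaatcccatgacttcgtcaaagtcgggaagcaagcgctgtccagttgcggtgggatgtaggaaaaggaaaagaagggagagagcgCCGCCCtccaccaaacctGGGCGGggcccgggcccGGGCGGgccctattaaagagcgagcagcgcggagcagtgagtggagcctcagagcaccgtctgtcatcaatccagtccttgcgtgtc
Plaur: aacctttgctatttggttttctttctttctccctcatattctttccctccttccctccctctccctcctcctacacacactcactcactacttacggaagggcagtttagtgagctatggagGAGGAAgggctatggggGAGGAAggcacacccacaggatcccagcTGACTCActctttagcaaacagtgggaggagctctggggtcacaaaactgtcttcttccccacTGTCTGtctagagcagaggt

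The Plau window held GGGCGG 3 times, with its farthest base 122, 104 and 87 bases before the start, letters found in 30.5 percent of 33469 promoter windows of the same length. Counted likewise to the farthest base, the Plaur window held TGANTCA once, 83 bases before the start (6.34 percent of windows). It held GAGGAA at 128 and 111 bases (23.3 percent), and CAGACA on the opposite strand at 20 bases (17.2 percent). The windows of Plau and Plaur shared 0 of the 4 motifs searched. These are letter matches in windows set by annotated starts.

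Between tissues, 5 of the 6 genes were higher in untreated tumours than in untreated contralateral samples over the 13 arrays of each: Plaur by 2.42 ± 0.22, adjusted p = 2.8e-18, Tgfb3 by 2.28 ± 0.16, adjusted p = 1.7e-23, Plau by 1.86 ± 0.16, adjusted p = 2.1e-18, Tgfb1 by 1.06 ± 0.17, adjusted p = 1.3e-08 and Plat by 0.79 ± 0.08, adjusted p = 3.3e-15. Tgfb2 was lower in tumours (-0.61 ± 0.09, adjusted p = 1.2e-09). At 8 d after MRT the directions were the same, with Plaur at 2.46 ± 0.30, Plau at 1.93 ± 0.23, Tgfb1 at 1.17 ± 0.23, Tgfb3 at 0.95 ± 0.23, Plat at 0.34 ± 0.11 and Tgfb2 at -0.46 ± 0.12, all called. Since over 60 percent of all genes were called in each of these comparisons, the counts say little of the 6 genes. Of the wider pathway, 11 of 11 latency genes and 14 of 14 target genes were also called higher in untreated tumours, and of 12 genes of plasminogen, its inhibitors and its binding proteins 6 were higher and 5 lower.

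The wider pathway was read from 49 genes on 5 lists, of which Smad7, Skil and Pmepa1 stand in both the SMAD and the target list. In MRT tumours at 8 d the latency genes, which store and release the ligands, were 8 of 11 lower and 2 higher (median -1.55), beside 47.8 percent of all genes called and a median of -0.04 over all genes. The latent TGF-beta binding proteins Ltbp3 (-1.55 ± 0.20) and Ltbp4 (-3.57 ± 0.47) fell, and Nrros, which anchors latent TGF-beta 1 on myeloid cells, rose (2.08 ± 0.22). Of 14 TGF-beta target genes 9 were lower and 0 higher (median -1.17), among them the collagen genes Col1a1 (-4.05 ± 0.49), Col3a1 (-3.77 ± 0.41) and Col1a2 (-3.06 ± 0.43). Of 11 SMADs and feedback regulators 6 were lower, among them the inhibitory Smad7 (-1.78 ± 0.28), the signal carrier Smad3 (-1.0 ± 0.19) and the ubiquitin ligase Smurf2 (-1.16 ± 0.28). Of 4 receptors 1 was called, Acvrl1, higher (0.87 ± 0.23).

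Of the 12 genes of plasminogen, its inhibitors and its binding proteins, 5 were lower and 2 higher in MRT tumours at 8 d (median -0.07). Lrp1, the endocytic receptor that clears protease and inhibitor complexes (-1.83 ± 0.27), Serpine2, a protease inhibitor (-1.17 ± 0.23), and Plgrkt, a plasminogen receptor (-0.75 ± 0.16), fell while Plau rose. In BB tumours at 8 d the counts lower and higher were 4 and 2 of 11 latency genes, 7 and 0 of 14 targets, 4 and 0 of 11 SMADs and regulators and 2 and 0 of 12 plasminogen genes, beside 22.9 percent of all genes. At 6 h and 48 h at most 1 gene of a list was called in MRT tumours.

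In MRT tumours at 15 d against 8 d, 7 of 11 latency genes, 5 of 11 SMADs and regulators, 7 of 14 targets and 4 of 12 plasminogen genes were higher, beside 27.9 percent of all genes called in either direction. Lower were 2 latency genes and 2 plasminogen genes. Ltbp2 (2.42 ± 0.45), Ltbp4 (2.43 ± 0.47), Col1a1 (2.76 ± 0.49), Col3a1 (2.63 ± 0.41) and the proteoglycan Bgn (2.48 ± 0.45) rose and Nrros fell (-1.29 ± 0.22). Tgfb3 also rose between these times. These comparisons use the same 7 MRT tumours at 8 d as those with untreated tumours.

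The same lists were read in contralateral samples, beside the background shares given above. At 6 h after MRT at most 1 gene of each list was called in each direction, among them Timp1, a metalloprotease inhibitor (4.16 ± 0.37), Anxa2, a plasminogen binding protein (1.04 ± 0.29), and Vtn, the matrix protein vitronectin (-1.08 ± 0.15). After BB at 6 h Timp1 (2.97 ± 0.40) and Vtn (-1.42 ± 0.17) differed in the same directions. At 48 h after MRT 5 of 14 targets were higher, among them Timp1 (3.09 ± 0.41), Tgfbi (1.95 ± 0.34) and Postn (1.73 ± 0.28), and of the plasminogen genes 2 were higher and 4 lower, with A2m, a broad protease inhibitor, at 2.31 ± 0.30. At 8 d A2m (1.65 ± 0.31) and the receptor gene Tgfbr1 (0.84 ± 0.13) were higher and Lrp1 (-0.40 ± 0.12) lower, and 0 of 11 latency genes were called.

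Genes whose pattern over the 11 group means was most like a member's were listed for each tissue, as a description over means that share arrays and tissue, among genes whose means span at least 1 log2. For Plau, Pearson's r was highest in tumours for Clec4a1 (0.99), Cd8a (0.99) and Fcer1g (0.989) and in contralateral samples for Ly96 (0.982), Rgs1 (0.981) and Lgals3bp (0.976). Cd8a is a T cell gene and Fcer1g an Fc receptor subunit of myeloid and NK cells. For Tgfb3 it was highest in tumours for Cyb5r3 (0.979), Axin2 (0.972) and Akt1 (0.968) and in contralateral samples for Wfdc1 (0.947), Tns2 (0.913) and Mta1 (0.894). For Tgfb1 it was highest in tumours for Pfkl (0.956), Lbh (0.945) and Plagl2 (0.943) and in contralateral samples for Cebpa (0.912), Cd37 (0.889) and Alox5ap (0.885). The Plaur list held Il10 (0.818), Ddx39a (0.815) and Hspb1 (0.812) in tumours and Samsn1 (0.914), Mob3a (0.89) and Fgr (0.877) in contralateral samples, and the Plat list Nop58 (0.91), Smn1 (0.896) and Klf4 (0.878) in tumours and Inmt (0.888), Slc30a7 (0.817) and Tmem140 (0.808) in contralateral samples. The Tgfb2 list held Tnr (0.912), Cabp1 (0.909) and Gnb2 (0.898) in tumours and Zfp488 (0.933), Pdgfra (0.862) and Bmp4 (0.854) in contralateral samples. Between members, r of Plau with Plaur was 0.61 over the tumour and 0.657 over the contralateral means, and that of Plau with Tgfb3 -0.237 and -0.011.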

How the data were processed

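Per the labels' protocols, 200 ng of RNA was labelled with biotin for Affymetrix rat arrays. Per the submitters' processing notes, Affymetrix Expression Console was used, by MAS5 and RMA for most arrays and by RMA alone for BB arrays (versions not given in the sources used here). The deposited intensity is linear, in whole numbers from 7 to 27837, with array medians from 117 to 165, so log2 of the deposited intensity was taken here and no other normalization was applied. Precision is limited by the number of arrays.

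Of 31099 probe sets, 57 controls, 436 with several gene symbols and 9780 without one were left out, which gave 14217 genes. Group means were fitted with limma 3.58.1 (R 4.3.3, data.table (1.17.8)), with variances that follow intensity, within each tissue, and on all 115 arrays where the tissues were compared, in 36 comparisons. Tables and figures were made in Python 3.11.15 (matplotlib 3.10.9, scipy 1.17.1, pandas 2.3.3, numpy 2.4.6).

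The 6 members and the gene lists were chosen with earlier results of these data known. The members are named throughout. Of a pathway list at most 3 called genes per comparison are named, those of the largest moderated statistic, and markers are named as a list. Of genes with a similar pattern the 3 with the highest correlation are named.

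The labels number the rats, and in 38 of the 55 rats with both tissues the deviations from the group means correlated above 0.1 (median 0.186), so the rat pairs the tissues. The rat as a replicate block (consensus correlation 0.157) was an alternative to independent arrays. The alternatives otherwise varied how arrays were scaled or weighted, which genes, probe sets and groups entered, the variance prior and 1 covariate at a time, or left out each array of groups of 5 or fewer. Covariates of proliferating cell and of fibroblast markers, and leaving out 4 arrays apart in larger groups, were chosen after seeing the data.

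The fit was tested on simulated data.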

Additional observations from a re-analysis of the deposited data

Results flagged for a closer look

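In 126 sets of arrays (each gene in each group of 4 to 10 arrays) the highest or lowest array was set against the others by Dixon's ratio. The 6 genes share the arrays, so the sets are not independent and 1 deviant array can count several times. An array lay far from the rest in 12 sets (9.52 percent), where chance gives about 1 in 20 for independent sets of normal values. The untreated contralateral sample of rat 18 at 48 h gave 3 of them, with Plau at 7.30, Tgfb1 at 6.81 and Tgfb3 at 7.41, each above the other 3 samples. The untreated tumour of rat 5 at 6 h had the highest Plau, 8.16, and the lowest Tgfb3, 8.02, of its group. Rat 55, BB at 8 d, had Plat at 10.10 and Plaur at 5.95 in its contralateral sample, both the highest of 4, and Plat at 10.09 in its tumour, the lowest of 4. Plau was low in the MRT contralateral sample of rat 7 at 6 h (5.61) and in the MRT tumour of rat 25 at 48 h (8.51). Tgfb1 was low in the MRT tumour of rat 6 at 6 h (5.25), and Plaur was high in the BB contralateral sample of rat 60 at 15 d (6.85).

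Of 36 differences between the effects in tumour and in contralateral tissue, 2 were called by limma. The MRT effect on Tgfb3 at 8 d was -1.41 log2 in tumour minus contralateral tissue (adjusted p = 0.0021), and all 7 MRT tumours lay below all 4 untreated tumours. That Tgfb3 call ended with the neuron, the proliferating cell or the fibroblast and pericyte markers as a covariate. The BB effect on Plau at 48 h was 1.72 log2 in tumour minus contralateral tissue (adjusted p = 0.012), and all 4 BB tumours lay above all 4 untreated tumours. Without rat 18's contralateral sample the Plau difference was 1.32, adjusted p = 0.11.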

How the results depend on the processing

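Of 216 member results 48 were called. Kept calls numbered 48 of 48 without an intensity trend, 47 of 48 with array quality weights (and 27 gained), 46 of 48 with quantile normalization, 46 of 48 with a common array median, 45 of 46 without the dimmest genes, 45 of 48 with the Gapdh 3′ minus 5′ difference as a covariate, 41 of 48 with the mean of all probe sets and 41 of 48 with only the compared groups fitted. With marker covariates, 40 of 48 were kept for neurons, 28 of 48 for macrophages, 35 of 48 for proliferating cells and 31 of 48 for fibroblasts and pericytes, and these covariates differ between the groups. The rat as a replicate block kept 14 of 14 calls between tissues and changed no call there: for example Plaur in untreated tumours against contralateral samples gave 2.41, adjusted p = 4.4e-20. Leaving out single arrays was possible for 47 calls, of which 34 were kept throughout and 13 lost for some array, as named above. The sign turned with the macrophage markers as a covariate for Plau MRT contralateral samples at 48 h (-0.091), Plaur MRT contralateral samples at 8 d (-0.019) and Plau MRT tumours against contralateral samples at 8 d (-0.093). The sign turned with the proliferating cell markers as a covariate for Tgfb1 untreated tumours against contralateral samples (-0.11) and Tgfb3 MRT tumours against contralateral samples at 8 d (-0.30). The sign turned with the fibroblast and pericyte markers as a covariate for Plat MRT tumours at 8 d (0.39) and Plat MRT tumours at 8 d against 48 h (0.13). The cause was not tested.

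The number of called members moved by more than 1.5 times from the count given above as follows, and smaller moves, such as 2 in place of 3, are not listed. With quantile normalization it was 1 for untreated tumours at 8 d against 6 h, and 4 for MRT contralateral samples at 8 d. With a common array median it was 0 for MRT against BB tumours at 8 d, and 4 for MRT contralateral samples at 8 d. With the dimmest 30 percent of genes left out it was 0 for MRT against BB tumours at 8 d, and 1 for MRT against BB tumours at 6 h. With the mean of all probe sets it was 0 for BB tumours at 48 h and the BB effect between tissues at 48 h, and 1 for BB tumours at 6 h and MRT contralateral samples at 48 h. With array quality weights it was 1 for MRT against BB tumours at 6 h, MRT contralateral samples at 48 h, MRT against BB contralateral samples at 6 h, MRT contralateral samples at 15 d against 8 d and the MRT effect between tissues at 6 h, 2 for BB tumours at 48 h, MRT against BB contralateral samples at 8 d, MRT contralateral samples at 8 d against 48 h and the BB effect between tissues at 48 h, 3 for BB tumours at 15 d against 8 d and MRT against BB contralateral samples at 15 d, and 4 for MRT tumours at 6 h, BB tumours at 6 h, BB tumours at 8 d and MRT against BB tumours at 8 d. With only the compared groups in the fit it was 0 for BB tumours at 6 h, MRT against BB tumours at 8 d and the BB effect between tissues at 48 h, 1 for BB tumours at 8 d, untreated tumours at 8 d against 6 h and MRT contralateral samples at 48 h, and 2 for MRT tumours at 48 h, MRT against BB contralateral samples at 8 d, MRT against BB contralateral samples at 15 d and MRT contralateral samples at 8 d against 48 h. With the neuron markers as a covariate it was 0 for the MRT effect between tissues at 8 d, 1 for MRT tumours at 6 h, untreated tumours at 8 d against 6 h, BB contralateral samples at 6 h, BB contralateral samples at 48 h and BB contralateral samples at 8 d, and 2 for MRT against BB tumours at 6 h. With the macrophage markers it was 0 for MRT against BB tumours at 8 d, MRT tumours at 8 d against 48 h, MRT against BB contralateral samples at 48 h, MRT against BB contralateral samples at 8 d and MRT contralateral samples at 8 d against 48 h, 1 for MRT tumours at 8 d, BB tumours at 8 d, MRT against BB tumours at 6 h, untreated tumours at 8 d against 6 h, MRT contralateral samples at 6 h and MRT contralateral samples at 48 h, 2 for BB contralateral samples at 48 h and the MRT effect between tissues at 8 d, and 3 for MRT tumours against contralateral samples at 8 d. With the Gapdh 3′ minus 5′ difference it was 0 for MRT contralateral samples at 8 d against 48 h, and 1 for BB contralateral samples at 8 d. With the proliferating cell markers it was 0 for the MRT effect between tissues at 8 d, 1 for MRT tumours at 6 h, MRT tumours at 15 d against 8 d, BB contralateral samples at 48 h and untreated tumours against contralateral samples, and 2 for MRT against BB tumours at 6 h, MRT against BB contralateral samples at 15 d and MRT tumours against contralateral samples at 8 d. With the fibroblast and pericyte markers it was 0 for MRT tumours at 8 d, BB tumours at 8 d, MRT against BB tumours at 8 d and the MRT effect between tissues at 8 d, and 1 for MRT tumours at 6 h, MRT against BB tumours at 6 h, untreated tumours at 8 d against 6 h, MRT tumours at 8 d against 48 h, MRT contralateral samples at 6 h, MRT contralateral samples at 48 h, MRT contralateral samples at 8 d, BB contralateral samples at 6 h and BB contralateral samples at 8 d. With single arrays left out it ran from 0 to 1 for MRT tumours at 6 h, BB contralateral samples at 48 h, the BB effect between tissues at 48 h, MRT against BB tumours at 8 d and MRT against BB tumours at 6 h, from 1 to 2 for untreated tumours at 8 d against 6 h, BB tumours at 6 h, MRT contralateral samples at 48 h, BB contralateral samples at 8 d, MRT contralateral samples at 8 d, MRT tumours at 15 d against 8 d and BB tumours at 8 d, from 1 to 3 for BB contralateral samples at 6 h.

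The count of all genes called moved by more than 1.5 times in 28 of 36 comparisons with array quality weights and with 1 array left out in 23. For MRT tumours at 6 h, 48 h and 8 d it was 202, 334 and 6797, with other settings but the weights giving 70 to 3607, 54 to 576 and 1 to 7024 and the weights 2280, 666 and 7893. For BB tumours at those times it was 2478, 369 and 3255, with 24 to 5971, 123 to 921 and 20 to 3266 over those settings and the weights 3154, 2392 and 9451. For MRT against BB tumours at 6 h, 48 h, 8 d and 15 d it was 2232, 0, 180 and 433, with 0 to 2963, 0 to 0, 0 to 459 and 140 to 946 over those settings and the weights 2058, 43, 5236 and 2628. For MRT contralateral samples at 6 h, 48 h and 8 d it was 1169, 4579 and 1124, with 699 to 1402, 430 to 5399 and 478 to 1743 over those settings and the weights 2473, 1898 and 2050. For BB contralateral samples it was 3064, 3069 and 844, with 841 to 4360, 3 to 5264 and 203 to 1128 over those settings and the weights 4816, 1714 and 2644. For MRT against BB contralateral samples at 6 h, 48 h, 8 d and 15 d it was 767, 276, 429 and 834, with 54 to 973, 0 to 563, 70 to 621 and 724 to 1929 over those settings and the weights 3095, 952, 2697 and 4978. For tumours between times (untreated 8 d against 6 h, MRT 8 d against 48 h, MRT and BB 15 d against 8 d) it was 4151, 4383, 3966 and 241, with 396 to 5130, 110 to 5978, 2568 to 4357 and 9 to 1104 over those settings and the weights 7300, 5330, 4790 and 8910. For contralateral samples between the same times it was 264, 51, 9 and 167, with 54 to 335, 35 to 182, 2 to 178 and 40 to 240 over those settings and the weights 615, 861, 1189 and 2245. For tumour against contralateral tissue (untreated, MRT at 8 d) it was 11526 and 8911, with 2091 to 11769 and 4511 to 9328 over those settings and the weights 11848 and 9930. For the MRT effect between tissues at 6 h, 48 h and 8 d it was 126, 352 and 5259, with 83 to 179, 70 to 1397 and 118 to 5931 over those settings and the weights 762, 163 and 6874. For the BB effect between tissues it was 217, 811 and 1103, with 87 to 1005, 36 to 1935 and 6 to 1697 over those settings and the weights 1573, 1625 and 2417. With 1 array left out it ran from 0 (for example MRT against BB tumours at 8 d) to 11575 (untreated tumours against contralateral samples). A common array median moved the median of all genes by over 0.1 log2 in 1 comparison, MRT tumours at 15 d against 8 d, where it was 0.14. The calls rest on 3 to 9 arrays a group. Rounding to whole numbers makes low intensities coarse.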
